A study of Mus musculus with 11 samples.

Results

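Open chromatin was described at 8 genes of T cell trafficking: the chemokine ligands Ccl3, Ccl4 and Ccl5, the chemokine receptors Ccr2, Cxcr3, Cxcr6 and Cx3cr1, and the egress receptor S1pr5. Each ATAC-seq peak (a stretch where transposase cuts are dense, hence an open region) was given to the closest span of a protein-coding gene, up to 100 kb away, and peaks of the 11 libraries sharing 1 bp or more were joined into regions. This gave the 8 genes 45 of 111041 regions, out of 16794 genes with at least 1 region. In all groups the cells were CD8+ T cells of mouse spleen with a YFP reporter for Tcf7, which encodes TCF-1, a factor of naive and memory T cells.

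In 8 libraries, activated cells were sorted for YFP at day 3, cultured again and sorted once more at day 9. They were YFP-low and then YFP-high (low_to_high, 3 libraries), YFP-high at both sorts (high_to_high, 2 libraries) or YFP-low at both sorts (low_to_low, 3 libraries). Effector cells had been activated in culture for 3 days. Antigen-experienced cells were CD44+ CD62L+ YFP+ and naive cells CD44- CD62L+ YFP+, both sorted from spleen without culture. These 3 groups had 1 library each. The activating agent, the mouse strain, sex and age, and the source of replicates (other animals, other cultures or repeat preparations) are not given in the sources used here, so p-values may measure only technical spread. In bulk libraries, fewer cells with an open site and a weaker signal in each cell cannot be told apart.

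Chemokines are small secreted proteins that bind G protein-coupled receptors and set the direction in which leukocytes move. Activated and memory CD8 T cells release Ccl3, Ccl4 and Ccl5, and their own receptors decide which tissues they enter. Cxcr3 binds the interferon-induced ligands Cxcl9 and Cxcl10, Ccr2 binds Ccl2, Cxcr6 binds Cxcl16 and Cx3cr1 binds fractalkine. S1pr5 binds the lipid sphingosine 1-phosphate, by which lymphocytes leave tissues for blood. Naive T cells are known to lack most of these inflammatory receptors.

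An open region lay over the upstream stretch of 4 of the 6 members found in the RefSeq promoter table (GRCm38.p6, which is mm10). The 250 bases before each of these 4 gene starts are shown because the letters TGTGGT, the core bound by Runx factors, or their reverse complement ACCACA occur in each of them, inside the open region. The stretches are chr11:83649379-83649628 for Ccl3, chrX:101734148-101734397 for Cxcr3, chr9:123806227-123806476 for Cxcr6 and chr9:120068297-120068546 for Cx3cr1. Cxcr6 lies on the plus strand and the others on the minus strand. Each is written 5′ to 3′ along its gene, with matches to any of the searched motifs in capitals.
Ccl3: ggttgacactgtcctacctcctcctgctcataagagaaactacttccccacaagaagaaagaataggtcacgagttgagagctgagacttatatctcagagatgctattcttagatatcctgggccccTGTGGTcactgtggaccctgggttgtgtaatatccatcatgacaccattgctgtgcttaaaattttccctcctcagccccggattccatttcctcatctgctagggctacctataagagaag
Cxcr3: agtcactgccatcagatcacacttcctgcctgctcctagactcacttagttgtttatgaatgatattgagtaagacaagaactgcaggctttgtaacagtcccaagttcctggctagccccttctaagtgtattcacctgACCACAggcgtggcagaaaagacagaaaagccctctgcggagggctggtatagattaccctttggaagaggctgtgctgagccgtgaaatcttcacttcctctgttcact
Cxcr6: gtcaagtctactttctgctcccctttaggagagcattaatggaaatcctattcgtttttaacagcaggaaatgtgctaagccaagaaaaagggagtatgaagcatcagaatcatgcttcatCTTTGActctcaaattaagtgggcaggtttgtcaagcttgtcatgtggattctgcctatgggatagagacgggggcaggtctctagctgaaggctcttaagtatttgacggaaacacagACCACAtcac
Cx3cr1: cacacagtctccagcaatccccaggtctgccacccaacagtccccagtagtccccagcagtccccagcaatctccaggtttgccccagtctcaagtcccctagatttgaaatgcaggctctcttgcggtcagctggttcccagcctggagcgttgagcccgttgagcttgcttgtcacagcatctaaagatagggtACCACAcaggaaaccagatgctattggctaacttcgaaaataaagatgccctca

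The Runx letters began 122 bases before the start of Ccl3, 110 before Cxcr3, 10 before Cxcr6 and 54 before Cx3cr1. Of 32851 mouse promoters of the same length, 14.0% held them on either strand. The TCF core CTTTGA, present in 13.8% of promoters, was found in the Cxcr6 stretch, 129 bases before the start and outside its open region. The upstream stretch of S1pr5 held 1 match to the NF-kB consensus, which 4.77% of promoters hold, and that of Ccr2 held no match. Neither of these was covered by an open region in any of the 11 libraries. No match was found in the 6 stretches for T-box (GGTGTGA), ETS (CGGAAGT), AP-1 (TGANTCA) or KLF (GGGNGTGG) letters. They occur in 3.33, 4.92, 6.75 and 15.9% of promoters. The motifs were searched on both strands and no motif contains another.

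Depth ran from 20.8 M to 59.97 M tags a library, and the peak lists held 46454 to 66117 peaks. Values are normalized tag counts, the tags in a peak window per 10 M tags of that library. Tags inside peaks made up 9.01 to 10.2% of a library in YFP-high cells and 10.4 to 12.5% in YFP-low cells of day 9. They made up 9.08% in effector, 15.75% in antigen-experienced and 15.01% in naive cells. Values in single libraries, and which of them are high or low or overlap, are given as deposited and carry these differences, whereas fold changes and tests are relative to each library's median region unless the deposited scale is named. Cd8a and Cd8b1 had regions in all 11 libraries. A list can miss an open site that did not pass the caller's filters, so a missing peak does not mean closed chromatin. The caller used windows of 136 bp for high_to_high replicate 2, 132 bp for naive cells and 172 bp for the other libraries. Values of the first 2 thus count tags in narrower windows, and the deposited values were not corrected for width. How far this lowers them was not tested. The 5 regions called only in either of these 2 libraries, at Ccl3, Ccl5 and Cx3cr1, rest on such narrow windows, and 1 of them at Ccl5 ends 3 bases before a region called in 10 libraries.

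Of the 45 regions, 14 lay inside a gene span or across its edge and the rest outside. A peak was called in all 11 libraries at 11 regions, in all 8 libraries of day 9 at 22, in some of these 8 at 14 and in none of them at 9. Ccl5 and Ccr2 had 10 regions each, Cx3cr1 8, Ccl3 and Cxcr3 5 each, Ccl4 and S1pr5 3 each and Cxcr6 1. The library counts were 28, 28 and 26 regions in low_to_high, 26 and 32 in high_to_high, 31, 30 and 28 in low_to_low, 22 in effector, 29 in antigen-experienced and 21 in naive cells.

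**Figure D1:**
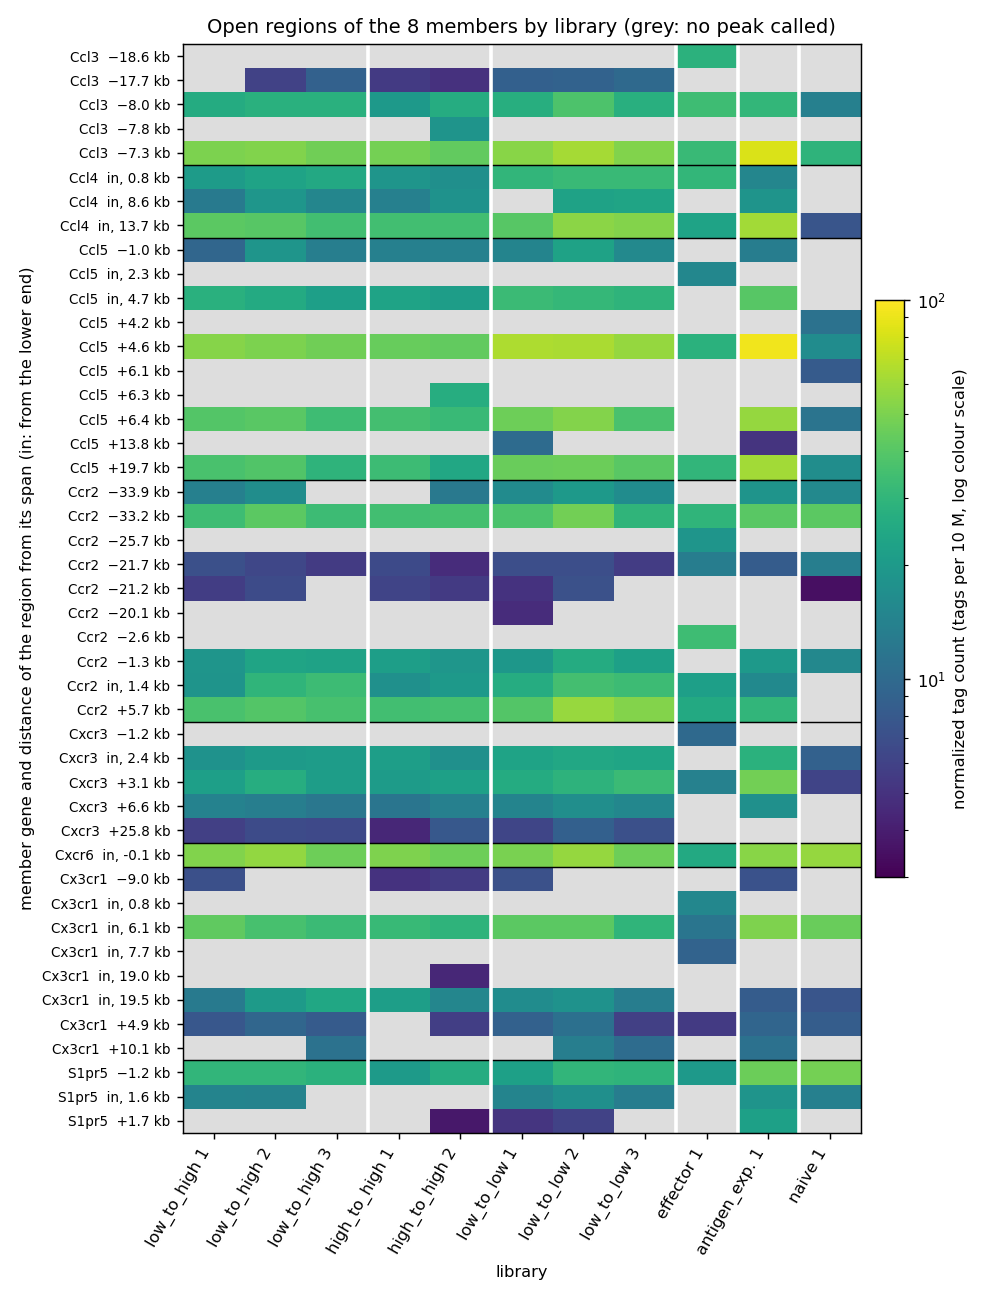
Normalized tag count (tags per 10 M, log colour scale) of the 45 regions (down the page, by gene and distance from its span; for regions inside, distance from the lower end) in each of 11 libraries (across). Grey marks regions with no peak in a library: 21 regions have a peak in the naive library and 7 only in the effector library.

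The 3 ligand genes lie close together on chromosome 11, and at each of their regions called in all 11 libraries the naive library had the lowest value. Here and below, naive values come from the narrower window of 132 bp. Ccl3 encodes a chemokine that draws monocytes and T cells. Its 5 regions all lay outside the span, and the strongest was at chr11:83640320-83640574, 7269 bp below it. This region had 50, 51.7 and 46.8 tags per 10 M in low_to_high, 48.0 and 43.0 in high_to_high, 53.8, 62.4 and 51.8 in low_to_low, 32.1 in effector, 82.4 in antigen-experienced and 29.2 in naive cells. All day 9 libraries were above both the effector and the naive library and below the antigen-experienced one. Among member regions called in all 3 reference groups, the antigen-experienced library was the highest of the 3 at 7 of 12, as deposited. The share over all such regions was 60.7%. The neighbouring region at chr11:83639488-83639878 had 26.1, 27.8 and 27.6 in low_to_high, 19.9 and 26.2 in high_to_high, 27.0, 37.7 and 27.5 in low_to_low, 33.7 in effector, 30.7 in antigen-experienced and 13.9 in naive cells. Here the naive library was the lowest of the 11, and the day 9 groups overlapped. A weak region 17736 bp below the span had 4.92 to 9.88 tags per 10 M in 7 day 9 libraries and no peak in low_to_high replicate 1 or in effector, antigen-experienced and naive cells. The remaining 2 regions were called in 1 library each.

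Ccl4 encodes a chemokine closely related to that of Ccl3. Its annotated span begins inside Ccl3 and covers the Ccl3 promoter, so the region at chr11:83649387-83649775, which overlaps the Ccl3 stretch shown above, counts here for Ccl4. It had 20.5, 22.9 and 25.0 tags per 10 M in low_to_high, 18.8 and 17.1 in high_to_high, 30.0, 32.4 and 32.4 in low_to_low, 30.7 in effector and 14.9 in antigen-experienced cells, and no peak in naive cells. As deposited, every YFP-high library of day 9 lay below every YFP-low one, and the 2 high_to_high libraries lay below the 3 low_to_high ones, but relative to the median region the YFP states overlapped. A region further along the span, at chr11:83662287-83662582, had 41.4, 40.1 and 34.6 in low_to_high, 34.5 and 34.4 in high_to_high, 40.3, 54.1 and 52.4 in low_to_low, 22.9 in effector, 61.8 in antigen-experienced and 7.6 in naive cells. The naive library was the lowest of the 11 and the antigen-experienced library the highest. Between these regions, at chr11:83657255-83657867, 7 day 9 libraries had 12.5 to 23.2 and the antigen-experienced library 18.3, with no peak in effector, naive and low_to_low replicate 1.

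Ccl5 encodes a chemokine that memory CD8 T cells are known to store and release quickly. Its strongest region, at chr11:83535094-83535324 and 4576 bp above the span, had 53.0, 50 and 47.0 tags per 10 M in low_to_high, 44.5 and 43.1 in high_to_high, 64.7, 64.1 and 57.4 in low_to_low, 28.1 in effector, 92.9 in antigen-experienced and 16.5 in naive cells. The antigen-experienced value was the highest of any of the 45 regions in any library. The day 9 YFP states did not overlap as deposited and overlapped relative to the median region. At chr11:83550265-83550515, 19747 bp above the span, the value was 36.6, 38.6 and 29.5 in low_to_high, 33.1 and 24.5 in high_to_high, 44.6, 45.4 and 41.0 in low_to_low, 30.2 in effector, 61.6 in antigen-experienced and 16.8 in naive cells. The antigen-experienced library was again the highest and the naive library the lowest. The YFP states again did not overlap as deposited and overlapped relative to the median region. The effector library lay within the range of the YFP-high libraries, and the low_to_high and high_to_high values overlapped.

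The region across the upper edge of the Ccl5 span, at chr11:83530495-83530711, had 27.6, 25.6 and 21.8 in low_to_high, 23.0 and 21.0 in high_to_high, 32.9, 31.1 and 29.2 in low_to_low and 40.1 in antigen-experienced cells. No peak was called there in effector or naive cells. The region 1013 bp below the span likewise had a peak in all 8 day 9 libraries, at 9.5 to 22.6, and in antigen-experienced cells, at 13.2, and none in effector and naive cells. A region 6430 bp above the span had 32.3 to 52.0 in day 9 cells, 57.1 in antigen-experienced and 11.6 in naive cells and no peak in effector cells. The other 5 Ccl5 regions had a peak in 1 or 2 libraries. The naive library thus had the lowest value of the 11 libraries or no peak at each of the 5 Ccl5 regions called in all of day 9.

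**Figure D2:**
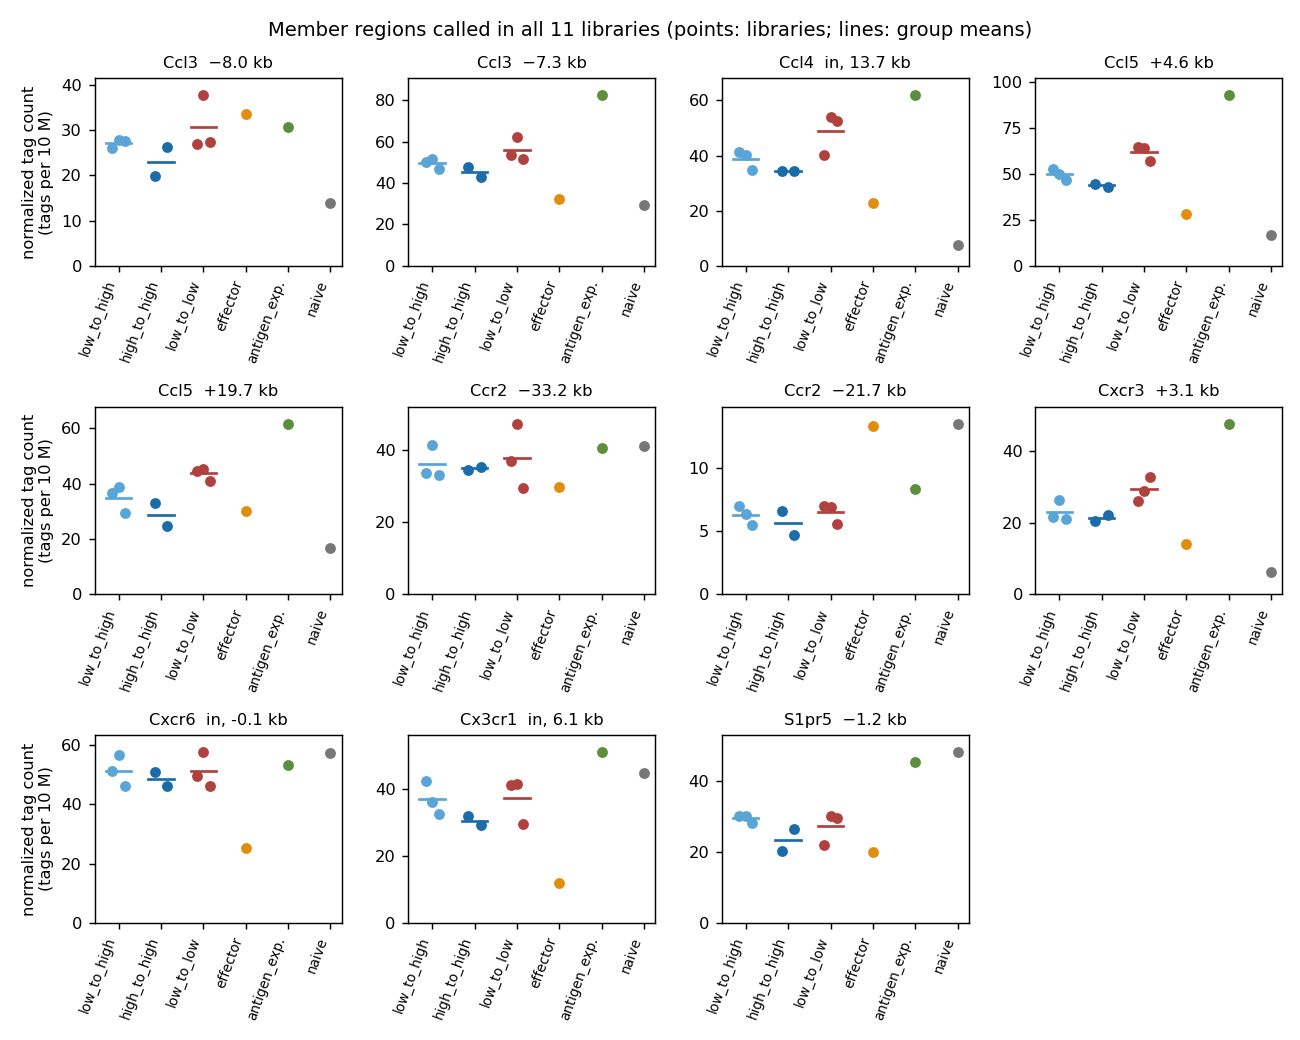
Normalized tag count (tags per 10 M, vertical axes from 0) of the 11 regions called in all 11 libraries, 1 point a library, with lines at the means of the groups with 2 or 3 libraries. The regions of Ccl4, Ccl5 and Cxcr3 are highest in the antigen-experienced library and lowest in the naive one (47.7 and 6.13 for Cxcr3), whereas those of Cxcr6 and S1pr5 are at 57.3 and 48.0 in the naive library. Values are as deposited, and of all regions called in the 3 reference groups 60.7% are highest of the 3 in antigen-experienced cells.

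Among the receptors, Cxcr3, which guides T cells into inflamed tissue, likewise had its lowest values in naive cells or no peak there. Its region at chrX:101737284-101737527, 3137 bp above the span, had 21.7, 26.5 and 21.1 tags per 10 M in low_to_high, 20.5 and 22.1 in high_to_high, 26.1, 29.0 and 32.9 in low_to_low, 14.0 in effector, 47.7 in antigen-experienced and 6.13 in naive cells. The naive and effector libraries lay below all 8 day 9 libraries and the antigen-experienced library above them. The region over the Cxcr3 promoter, at chrX:101733909-101734338, had 17.9, 20.4 and 20.9 in low_to_high, 21.5 and 17.4 in high_to_high, 23.0, 24.4 and 23.6 in low_to_low, 28.3 in antigen-experienced and 8.93 in naive cells. It had no peak in effector cells. A region 6635 bp above the span, at chrX:101740782-101741031, had 14.2, 13.5 and 12.0 in low_to_high, 11.8 and 13.8 in high_to_high, 14.6, 17.0 and 15.3 in low_to_low and 17.5 in antigen-experienced cells. Effector and naive cells had no peak there. The weakest region, 25773 bp above the span, had 4.45 to 8.84 in the 8 day 9 libraries and no peak elsewhere, and 1 more was called in effector cells alone.

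Ccr2, the receptor through which monocytes and effector T cells follow Ccl2, had regions with differing patterns. The region at chr9:124068460-124068749, 33169 bp below the span, had 33.7, 41.4 and 33.1 tags per 10 M in low_to_high, 34.5 and 35.4 in high_to_high, 37.0, 47.3 and 29.6 in low_to_low, 29.9 in effector, 40.7 in antigen-experienced and 41.2 in naive cells. All 11 libraries lay between 29.6 and 47.3 there. By contrast, the region 5683 bp above the span, at chr9:124114823-124115074, had 36.6, 39.2 and 36.0 in low_to_high, 34.5 and 35.5 in high_to_high, 39.3, 58.5 and 52.2 in low_to_low, 25.4 in effector and 30.3 in antigen-experienced cells and no peak in naive cells. The YFP states of day 9 did not overlap as deposited and overlapped relative to the median region.

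Inside the Ccr2 span, at chr9:124103336-124103639, the value was 18.4, 29.8 and 33.1 in low_to_high, 17.4 and 20.1 in high_to_high, 26.2, 34.9 and 33.1 in low_to_low, 21.7 in effector and 15.8 in antigen-experienced cells. No peak was called in naive cells, and low_to_high replicate 1 lay with the high_to_high libraries. A region 21697 bp below the span had 4.67 to 7.03 in day 9 cells, 13.3 in effector, 8.31 in antigen-experienced and 13.5 in naive cells. All day 9 libraries were thus the lowest as deposited. Relative to the median region, their mean was 0.11 above the antigen-experienced library on the log2 scale. The region 1270 bp below the span had 18.7 to 25.8 in day 9 cells, 20 in antigen-experienced and 15.5 in naive cells and no peak in effector cells. Of the other 5 regions, 2 were called only in effector cells, at 18.6 and 33.6, and 1 only in low_to_low replicate 1, at 4.67.

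Cxcr6, a receptor typical of resident memory T cells, had 1 region, at chr9:123806385-123806585 over its promoter. The gene lies inside the span of Fyco1, to which the region belongs as well. The value was 51.3, 56.7 and 46.3 tags per 10 M in low_to_high, 50.9 and 46.3 in high_to_high, 49.7, 57.6 and 46.2 in low_to_low, 25.1 in effector, 53.5 in antigen-experienced and 57.3 in naive cells. All day 9 and both splenic libraries lay between 46.2 and 57.6, and the effector library was the lowest of the 11.

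Cx3cr1, a receptor of cytotoxic effector and patrolling memory T cells, had its strongest region inside the span, at chr9:120054817-120055122. It had 42.4, 36.1 and 32.6 tags per 10 M in low_to_high, 31.8 and 29.2 in high_to_high, 41.1, 41.4 and 29.6 in low_to_low, 11.8 in effector, 50.9 in antigen-experienced and 44.8 in naive cells. The effector library was the lowest here too. The promoter region, at chr9:120068208-120068384, had 12.7, 20.4 and 24.2 in low_to_high, 21.5 and 14.9 in high_to_high, 16.6, 17.9 and 13.3 in low_to_low, 8.31 in antigen-experienced and 7.6 in naive cells. All day 9 libraries exceeded both splenic libraries, and effector cells had no peak. Of the other 6 regions, 2 were called only in effector cells and 1 only in high_to_high replicate 2. The remaining 3 lay outside the span, at 5.04 to 13.4 where a peak was called.

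S1pr5, which in natural killer cells and memory T cells acts in exit from tissue, had 3 regions. The strongest, at chr9:21241451-21241713 and 1204 bp below the span, had 30.0, 30.0 and 28.1 tags per 10 M in low_to_high, 20.3 and 26.3 in high_to_high, 21.9, 30.2 and 29.4 in low_to_low, 19.9 in effector, 45.4 in antigen-experienced and 48.0 in naive cells. Both splenic libraries were above all cultured ones. The region inside the span, at chr9:21244504-21244977, had no peak in either high_to_high library. It had 14.6 and 14.4 in low_to_high replicates 1 and 2 and no peak in replicate 3, 14.6, 17.1 and 13.3 in low_to_low, 18.5 in antigen-experienced and 13.9 in naive cells, and no peak in effector cells. The last region, 1745 bp above the span, had 21.9 in antigen-experienced cells and 3.75 to 5.97 in the 3 day 9 libraries with a peak.

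The single libraries of the reference groups allow no test, and regions called in both of a pair were compared on log2(value + 1) after subtracting the median difference of all regions of that pair. In antigen-experienced against naive cells, 7 of 18 member regions were past 2-fold higher, against 3.69% of all regions, and 0 were past 2-fold lower, against 1.07%. The 7 were the strongest Ccl4 region (a log2 difference of 2.71), the Cxcr3 regions 3137 bp above the span and at the promoter (2.61 and 1.40), the Ccl5 regions 4576, 6430 and 19747 bp above the span (2.26, 2.04 and 1.65) and the strongest Ccl3 region (1.30). Among regions called in both libraries, all ligands and Cxcr3 were thus represented, and no region of Ccr2, Cxcr6, Cx3cr1 or S1pr5. Regions without a naive peak could not enter this count. They include the Ccr2 regions 5683 bp above the span and inside it (30.3 and 15.8 in antigen-experienced cells). The S1pr5 region 1745 bp above the span (21.9) and the Cx3cr1 regions 8984 bp below and 10064 bp above the span (7.24 and 11.1) also lacked one. Of the 29 member regions called in antigen-experienced cells, 11 were not called in naive cells, against 12.2% of all regions. Of the 21 called in naive cells, 3 were not called in antigen-experienced cells, against 23.2%.

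In effector against naive cells, 5 of 12 member regions were past 2-fold higher, against 14.6% of all regions. These were the strongest Ccl4 region (2.19), the Ccl3 region 7965 bp below the span (1.93), the Cxcr3 region 3137 bp above the span (1.78) and the Ccl5 regions 19747 and 4576 bp above the span (1.52 and 1.45). The Cx3cr1 region at chr9:120054817-120055122 was past 2-fold lower (-1.13), and 6.1% of all regions were. Without the centring on the median, 3 member regions were higher and 3 lower, so this count depends on the scale. Effector cells had peaks at 10 of 22 member regions not called in naive cells, against 51.0% of all regions, and lacked 9 of the 21 naive ones, against 43.7%. Against the antigen-experienced library, 7 of the 22 were not called there, where 52.7% of all effector regions were not. Of the 22, 7 were called in no other library, against 39.4% of all effector regions.

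In effector against antigen-experienced cells, 4 of 15 member regions were past 2-fold higher, against 12.5% of all regions, and 1 was lower, against 5.21%. The higher ones were the Ccl4 region over the Ccl3 promoter (1.92), the Ccr2 regions 21697 bp below the span and inside it (1.54 and 1.35) and the Ccl3 region 7965 bp below the span (1.05). The Cx3cr1 region inside the span was the lower one (-1.10). On the scale without centring, 0 were higher and 8 lower.

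**Figure D3:**
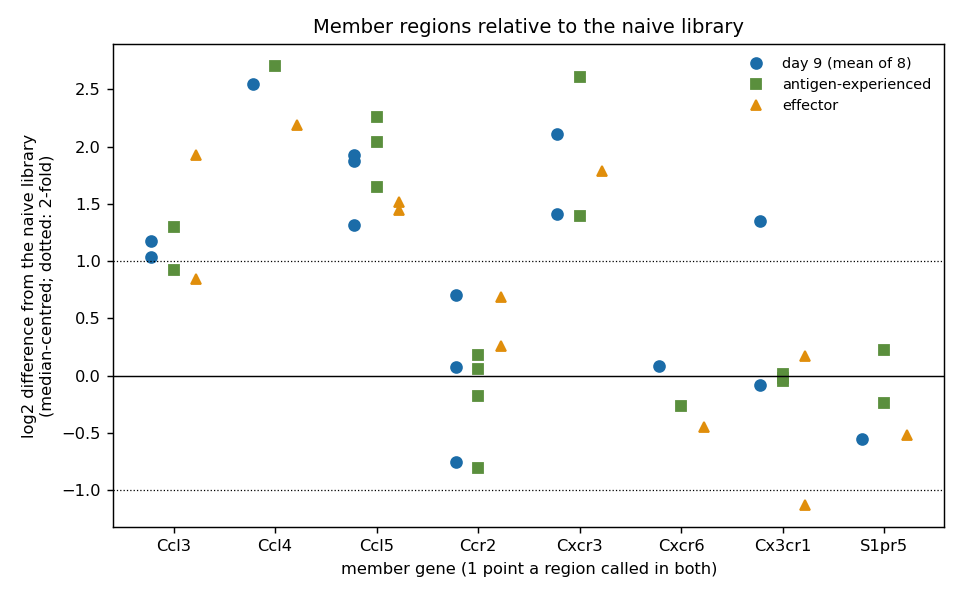
Log2 difference from the naive library, on log2(value + 1) and median-centred, of each member region called in both libraries or in naive and all day 9 libraries (1 point a region), for the mean of 8 day 9 libraries, antigen-experienced and effector cells. Points of Ccl4, Ccl5 and Cxcr3 lie above the dotted 2-fold line in all 3 kinds of cell, and those of Cxcr6 and S1pr5 lie within 2-fold of naive cells.

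The mean of the 8 day 9 libraries was set beside each single library, centred likewise, and a region counted as past 2-fold only where that library also lay outside the range of the 8. Against naive cells, 9 of 15 member regions were past 2-fold higher, against 9.41% of all regions, and 0 lower, against 2.5%. The largest differences were at the strongest Ccl4 region (2.55) and the Cxcr3 region 3137 bp above the span (2.11). Next came the Ccl5 regions 6430, 4576 and 19747 bp above the span (1.93, 1.87 and 1.32), the Cxcr3 promoter (1.41), the Cx3cr1 promoter (1.35) and the 2 Ccl3 regions called in all of day 9 (1.18 and 1.04). A further 7 of the 22 member regions called in all of day 9 had no peak in naive cells, against 10.4% of all such regions.

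Against antigen-experienced cells, 3 of 21 member regions were past 2-fold higher in day 9 cells, against 6.2% of all regions, and 0 lower, against 1.6%. They were the Cx3cr1 promoter (1.47), the region inside Ccr2 (1.17) and the Ccl4 region over the Ccl3 promoter (1.16), and without the centring none was past 2-fold higher. Against effector cells, the Cx3cr1 region inside the span was past 2-fold higher (1.12) and the Ccr2 region 21697 bp below the span past 2-fold lower (-1.38), of 14 member regions and against 5.61 and 4.43% of all regions. Of the 22 member regions called in all of day 9, 8 had no peak in effector cells, against 24.6% of all such regions, and 1 had none in antigen-experienced cells, against 9.07%. All 29 member regions of the antigen-experienced library were called in at least 1 day 9 library, where 8.55% of all its regions were not, and 0 of the 29 were called in that library alone, against 3.42%. Naive cells alone had 2 of their 21 member regions, both of Ccl5, against 9.27% of all naive regions. A peak in all of day 9 and in antigen-experienced cells but not in effector or naive cells was found for 3 of 21 member regions, 2 of Ccl5 and 1 of Cxcr3, against 2.03% of all such regions.

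Within day 9, the reporter state gave no call at any of the 8 genes. In YFP-high against YFP-low cells, limma with Benjamini-Hochberg adjustment over all 34383 regions called in all 8 libraries called 0 of 22 member regions at an adjusted p under 0.05, against 0.332% of all regions. At an unadjusted p under 0.05 it listed 4 of 22, against 8.07%. The median log2 fold change was -0.04 over the members and -0.00 over all regions, and 15 members were lower and 7 higher. The lowest adjusted p was that of the Ccl4 region over the Ccl3 promoter, which averaged 20.9 ± 3.16 in YFP-high and 31.6 ± 1.39 in YFP-low cells (SD, n = 5 and 3), a log2 change of -0.37 ± 0.12 (SE, limma adjusted p = 0.238). The Cx3cr1 promoter averaged 18.7 ± 4.78 in YFP-high and 15.9 ± 2.37 in YFP-low cells (SD, n = 5 and 3), with a log2 change of 0.41 ± 0.15 (SE, limma adjusted p = 0.389).

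All 5 tested Ccl5 regions had negative fold changes, and none passed the test. The value 19747 bp above the span averaged 32.5 ± 5.64 in YFP-high and 43.7 ± 2.34 in YFP-low cells, a log2 change of -0.21 ± 0.11 (SE, limma adjusted p = 0.627). At the strongest Ccl5 region it was -0.16 ± 0.09 (limma adjusted p = 0.680). Ccr2 had fold changes of both signs, from -0.21 ± 0.10 above the span (limma adjusted p = 0.569) to 0.15 ± 0.11 at the region 33169 bp below it (limma adjusted p = 0.754). The 4 Cxcr3 regions ran from -0.16 to -0.00. Cxcr6 averaged 50.3 ± 4.31 in YFP-high and 51.2 ± 5.84 in YFP-low cells, which is 0.20 ± 0.09 relative to the median region (limma adjusted p = 0.582). S1pr5 was at 0.21 ± 0.12 (limma adjusted p = 0.671), and the 2 Ccl3 regions at -0.03 ± 0.11 and -0.00 ± 0.09. Leaving out 1 library moved the fold change by over 1.5 times or changed its sign at 19 of 22 member regions. It ran from -0.43 to -0.32 at the Ccl4 region over the Ccl3 promoter and from 0.32 to 0.54 at the Cx3cr1 promoter.

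These fold changes depend on the scale. On the deposited values the median of all tested regions was 0.22 lower on the log2 scale in YFP-high cells, and 21 of 22 member regions were lower. There 5 of 22 were called, all lower (both Ccl4 regions, the Ccl5 regions 4576 and 19747 bp above the span and the Ccr2 region 5683 bp above it), as were 1943 of all regions, with 79 called higher. With centring, 113 of all regions were called higher and 1 lower, and these counts depend on single libraries, with 15 higher and 0 lower without low_to_low replicate 2 and 206 higher and 4 lower without low_to_low replicate 1. In 8 of 22 member regions the deposited values of all YFP-high libraries lay below all YFP-low ones, against 18.2% of all regions, and in 0 above, against 0.372%. After centring, only the Cxcr6 region had groups that did not overlap, with YFP-high above (1 of 22, against 3.0% of all regions), and 0 lay below, against 2.48%.

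**Figure D4:**
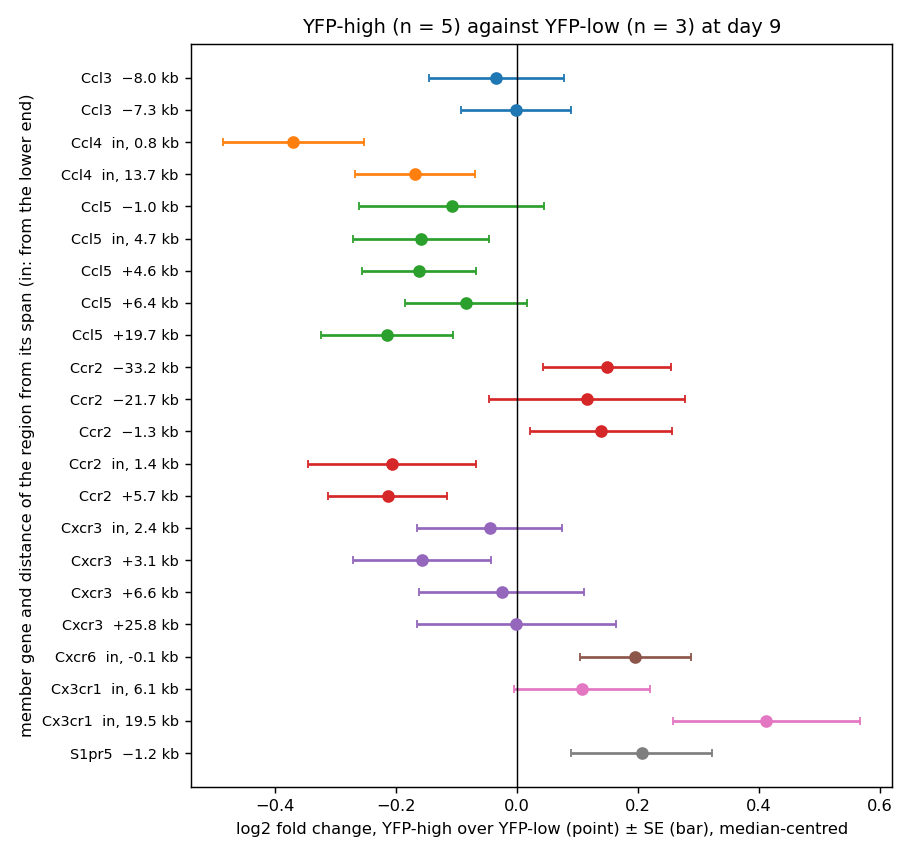
Log2 fold change (horizontal axis, points) with its SE (bars) of YFP-high (5 libraries) over YFP-low (3 libraries) at day 9, for the 22 member regions called in all 8 libraries. The region of Ccl4 over the Ccl3 promoter is at -0.37 and the Cx3cr1 promoter at 0.41, and none passed the adjusted threshold.

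Summed over the regions called in all of day 9, 0 of 8 genes were called by limma in YFP-high against YFP-low cells, against 0.0729% of 13720 genes, and 5 had an unadjusted p under 0.05, against 6.7% of all genes. Ccl4 summed to 57.9 ± 5.17 tags per 10 M in YFP-high and 80.5 ± 8.90 in YFP-low cells (SD, n = 5 and 3), a log2 change of -0.22 ± 0.08 (SE, limma adjusted p = 0.510). Cx3cr1 summed to 53.2 ± 5.25 in YFP-high and 53.3 ± 9.04 in YFP-low cells, a centred log2 difference of 0.26 ± 0.10 (SE, limma adjusted p = 0.560). The others with an unadjusted p under 0.05 were Ccl5 (-0.12), Cxcr6 (0.23) and S1pr5 (0.24), whereas Ccl3 (0.02), Ccr2 (-0.01) and Cxcr3 (-0.05) lay near 0. Cxcr6 and S1pr5 had 1 tested region each, so here and below their sums are that region again, centred and fitted over genes. In the fit over regions the S1pr5 region had a limma unadjusted p of 0.085. The region over the Ccl3 promoter is summed here into Ccl4, so the values of these 2 genes depend on that assignment.

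The study also separated YFP-high cells by their state at day 3. In high_to_high against low_to_low cells, limma called 0 of 22 member regions, against 0.596% of all regions, and listed 4 at an unadjusted p under 0.05, against 9.92%. The Ccl4 region over the Ccl3 promoter averaged 17.9 ± 1.20 in high_to_high and 31.6 ± 1.39 in low_to_low cells (SD, n = 2 and 3), a log2 change of -0.49 ± 0.14 (SE, limma adjusted p = 0.123). Other fold changes were -0.42 ± 0.17 for the region inside Ccr2 (limma adjusted p = 0.364), -0.31 ± 0.14 for the Ccl5 region 19747 bp above the span (limma adjusted p = 0.439) and 0.46 ± 0.20 for the Cx3cr1 promoter (limma adjusted p = 0.407). None passed the threshold. The Ccl5 value was -0.52 without high_to_high replicate 1 and -0.10 without replicate 2, and the Cx3cr1 value was 0.21 and 0.71. On the deposited scale 7 of 22 were called, and over all regions the calls were then 149 higher and 7261 lower, against 192 higher and 13 lower with centring. The centred calls were 66 higher and 2 lower without low_to_low replicate 2 and 297 higher and 18 lower without low_to_low replicate 1, so their number depended on single libraries. Higher calls outnumbered lower ones in each such run except that without high_to_high replicate 1. That run leaves 1 library in the group, high_to_high replicate 2, whose windows of 136 bp were narrower than those of the other day 9 libraries. Lower calls were then more frequent, so the direction depended on replicate 1. The part of window width in this was not tested.

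In low_to_high against low_to_low cells, limma called 0 of 22 member regions, against 0.032% of all regions, and listed 3 at an unadjusted p under 0.05, against 5.56%. S1pr5 was at 0.29 ± 0.13 (limma adjusted p = 0.837), the Ccl4 region over the Ccl3 promoter at -0.29 ± 0.13 (limma adjusted p = 0.842), the Cx3cr1 promoter at 0.38 ± 0.18 (limma adjusted p = 0.870) and the Ccr2 region above the span at -0.23 ± 0.11 (limma adjusted p = 0.898). The Cx3cr1 value was 0.18 without low_to_high replicate 3 and 0.62 without replicate 1. Over all regions 11 were called, with 0 to 56 when 1 library was left out. The comparisons of high_to_high and low_to_high cells share the low_to_low libraries.

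The last comparison is between YFP-high cells that differed in the sort at day 3. In low_to_high against high_to_high cells, limma called 0 of 22 member regions, against 0.0% of all regions, and listed 1 at an unadjusted p under 0.05, against 5.09%. The region inside Ccr2 averaged 27.1 ± 7.71 in low_to_high and 18.8 ± 1.91 in high_to_high cells (SD, n = 3 and 2), a log2 change of 0.35 ± 0.17 (SE, limma adjusted p = 0.974). The value was 0.17 without low_to_high replicate 3, 0.58 without replicate 1 and 0.22 with the replicate block. S1pr5 was at 0.21 ± 0.14 (limma adjusted p = 0.974), with 0.03 without high_to_high replicate 1 and 0.39 without replicate 2, and the Ccl5 region 19747 bp above the span at 0.15 ± 0.14 (limma adjusted p = 0.980). The Ccl4 region over the Ccl3 promoter was at 0.20 ± 0.14 (limma adjusted p = 0.974), with its 3 low_to_high values of 20.5 to 25.0 between those of high_to_high and those of low_to_low cells. For gene sums limma called 0 of 8 members in each of these 3 comparisons, against 0.211, 0.00729 and 0.0% of all genes, and listed 2, 4 and 0 at an unadjusted p under 0.05, against 8.9, 4.41 and 5.28% of all genes.

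Several members are also genes of natural killer and myeloid cells. Of 4 natural killer markers, 3 or 4 had a region in every library, with summed values of 331.4 to 367.4 in low_to_high, 341.3 and 321.6 in high_to_high, 389.6 to 450.1 in low_to_low, 357.9 in effector, 594.4 in antigen-experienced and 536.0 in naive cells, and Ncr1 had no region in 7 libraries. Of 7 myeloid markers, 3 or 4 had a region, with sums of 142.1 to 150.7 in low_to_high, 141.2 and 134.2 in high_to_high, 154.1 to 185.4 in low_to_low, 105.6 in effector, 221.6 in antigen-experienced and 237.6 in naive cells. Csf1r and Cd68 were called in no library. Of 6 B cell markers, 3 or 4 had a region, with sums of 144.2 to 158.6 in low_to_high, 130.3 and 156.1 in high_to_high, 178.7 to 241.2 in low_to_low, 372.5 in effector, 237.3 in antigen-experienced and 107.6 in naive cells. Cd79a had no region in any library, and Ms4a1 had one in effector cells alone. Of 4 markers of CD4 and regulatory T cells, 3 or 4 had a region in every library. Their sums were 124.3 to 142.2 in low_to_high, 108.4 and 141.4 in high_to_high and 122.9 to 146.9 in low_to_low. They were 93.85 in effector, 314.5 in antigen-experienced and 273.9 in naive cells. Both of 2 erythroid markers had a region in every library, with sums of 43.62 to 78.62. The part of other cells in the values of the members was not tested.

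Of 57 other chemokine, chemokine receptor and egress genes, 47 had at least 1 region, 353 in all, and 117 regions were called in all of day 9. In high_to_high against low_to_low cells limma called 1 of 117 higher and 0 lower, against 0.596% of all regions called in either direction. The called region lies 1623 bp from Ccr1, a receptor of Ccl3 and Ccl5, at chr9:123960266-123960503. It had 12.7, 17.9 and 11.8 tags per 10 M in low_to_high, 20.1 and 17.4 in high_to_high, 12.8, 12.4 and 9.67 in low_to_low, 19.6 in effector, 14.9 in antigen-experienced and 16.7 in naive cells, with a log2 change of 0.94 ± 0.18 (SE, limma adjusted p = 0.00643). Without high_to_high replicate 1 or low_to_low replicate 2 it was not called (limma adjusted p = 0.105 and 0.0503). In the other comparisons of day 9 groups limma called 0 of 117. At an unadjusted p under 0.05 it listed 12 between the YFP states, against 8.07% of all regions. For high_to_high against low_to_low cells it listed 16, against 9.92%. It listed 5 in low_to_high against low_to_low cells, against 5.56%, and 7 in low_to_high against high_to_high cells, against 5.09%. In antigen-experienced against naive cells 14 of 125 regions of these genes were past 2-fold higher and 3 lower. Over all regions the shares were 3.69 and 1.07%. In effector against naive cells 20 of 89 were higher and 12 lower, against 14.6 and 6.1% of all regions. On gene sums limma called 0 of 36 of these genes in each day 9 comparison, against at most 0.211% of all genes. It listed 2 to 5 at an unadjusted p under 0.05, against 4.41 to 8.9% of all genes.

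Genes were also ranked by how closely their summed signal followed that of a member over the 11 libraries, centred on the library median over genes. These sums ran over all regions of a gene, with a missing peak counted as no signal. The correlations can therefore follow which peaks were called, and the libraries differ in depth and in the share of tags in peaks. How far this shaped the ranking was not tested. Ccl5 was followed most closely by Lrrk1 (Pearson r = 0.987) and Cxcr3 (0.985), of 7165 genes with a sum high enough. Cxcr3 was followed by Lrrk1 (0.989) and Ccl5 (0.985), so that each of the 2 members was among the closest genes of the other. Ccl3 was followed by Il1rl1 (0.988) and Ifng (0.982), Ccl4 by Shc3 (0.992) and Mybpc1 (0.988) and Ccr2 by Bhlhe40 (0.989) and Myo1e (0.987). The closest genes were less alike for Cx3cr1, with Niban2 (0.936) and Sptbn4 (0.934), and for S1pr5, with Ctcf (0.905) and Ublcp1 (0.900).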

How the data were processed

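ATAC-seq libraries were made from 11 samples of sorted cells and sequenced in paired-end mode, per the labels' protocols. Bowtie2, HOMER 4.10, DESeq2 and build mm10 are named in the submitters' processing notes without a role. The authors called peaks in each library alone, without a control, with HOMER findPeaks. Per the file headers, a peak had to pass an FDR of 0.001, exceed its surrounding 10 kb by 4.0-fold and reach a local Poisson p of 1.00e-04 or less. That local filter removed 36.4 to 53.3% of putative peaks. As signal, the authors deposited a normalized tag count for each peak (tags in its window per 10 M tags), per the file headers. The deposited ratio of a peak is its fold over local signal, used here only as a filter.

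From these values, regions were formed at 1 bp of overlap, took the strongest peak of each library and were assigned to gene spans of the RefSeq table of the same build, to each gene where spans tied. A region of a promoter is one that overlaps the 300-base window of the RefSeq table, of which the 250 upstream bases were searched. The day 9 groups were compared by limma 3.58.1 (R 4.3.3, lmFit and eBayes with a trend). Input was log2 of the tag count plus 1, centred on the library median, over regions called in all 8 libraries. YFP-high against YFP-low was fitted as 2 groups, the other comparisons in 1 model of 3 groups. Fold changes on that scale understate changes of low values. Tables were made with Python 3.11.15 and pandas 2.3.3. The fits were tested on simulated data. The lowest listed values were 2.25 to 4.32, so that weaker sites are missing, and no counting intervals were computed. Peaks on unplaced sequence and the Y chromosome (up to 0.104% of a list) were not used.

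The members, the gene lists and the rules were chosen with earlier results of these data known. Values in every library are given for up to 3 tested regions a member with the largest fold change of YFP-high against YFP-low, the promoter region, the strongest region, and regions called in all libraries of 1 day 9 group and in 0 of another. Regions named beyond this rule were chosen after their values were seen. For the most similar genes, at least 3 regions and a mean sum of at least 50 were required. Replicate numbers were checked as pairs: same-numbered low_to_high and low_to_low libraries correlated at 0.298, 0.136 and 0.161 in their deviations from the group means. Those with unlike numbers correlated at -0.188 to 0.0209. Same-numbered high_to_high libraries correlated with low_to_high and low_to_low ones at -0.04 to -0.00. What a shared number stands for is not given, so a paired design is not established. The main fits did not use the numbers. Alternatives were other scaling, pseudocounts, filters, merging, distance limits, the replicate block and leaving out each library.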

Additional observations from a re-analysis of the deposited data

Results flagged for a closer look

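Among 23 member regions with values in all 5 YFP-high libraries of day 9, 3 had 1 library standing apart from the other 4, where chance gives about 1 in 20. The Ccl3 region 7965 bp below the span was lowest in high_to_high replicate 1, at 19.9, against 26.1 to 27.8 in the others. The Ccr2 region 33169 bp below the span was highest in low_to_high replicate 2, at 41.4, against 33.1 to 35.4. The Cxcr3 region 3137 bp above the span was highest in that same library, at 26.5, against 20.5 to 22.1. The cause was not tested.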

How the results depend on the processing

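In the 4 comparisons of day 9 groups limma called 0 member regions and 0 member genes under every alternative run except the deposited scale without centring: the replicate block, cyclic loess, a pseudocount of 5, a mean of at least 10, a fold over local signal of at least 6, merging at 50 bp of overlap, a distance limit of 20 kb, the sole nearest gene, a covariate for the fraction of tags in peaks and leaving out each library (0 to 0 calls). Missing values set to the lowest of the list were run for regions alone, with 0 member regions called. The fit with the covariate called 0 of all 34383 regions in each comparison, so its 0 calls say nothing about stability. The fit as reported called at most 0.596% of all regions and 0.211% of all genes in any comparison. At such shares 0 calls are likely among so few members, so the other 0 calls say little about stability. For low_to_high against high_to_high cells that fit called 0 of all 34383 regions, so 0 member calls were given there. With the replicate block the member calls were 0 in each comparison, as without it, which for the same reason does not show that pairing had no effect. Over all regions the block gave 213, 374, 55 and 4 calls for the YFP states, high_to_high against low_to_low, low_to_high against low_to_low and low_to_high against high_to_high cells, where the fit without it gave 114, 205, 11 and 0. On the deposited scale 5 regions and 4 genes were called between the YFP states and 7 regions and 5 genes for high_to_high against low_to_low.

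For YFP-high against YFP-low, signs turned at fold changes near 0 and, on the deposited scale, at larger ones (Cxcr6 at 0.196 for the region and 0.229 for the sum, S1pr5 at 0.207 and 0.240 as reported). On that scale the Ccr2 regions 33169, 21697 and 1270 bp below the span were at -0.0691, -0.102 and -0.0789, Cxcr6 (region and sum) at -0.0223, the Cx3cr1 region inside the span at -0.111, S1pr5 (region and sum) at -0.0113 and the Ccl3 sum at -0.232. With the covariate, the Ccl3 region 7965 bp below the span was at 0.185, the Ccl5 region 1013 bp below at 0.179, the Ccr2 region 21697 bp below at -0.0688, the weakest Cxcr3 region at 0.209 and the Ccr2 sum at 0.102. The 2 Ccl3 regions were at 0.00171 and 0.0289 with cyclic loess, and the strongest was at 0.0291 with a mean of at least 10, 0.0058 with a fold of at least 6 and 0.0011 with merging at 50 bp. The weakest Cxcr3 region was at 0.0392 with a pseudocount of 5, 0.00588 with the replicate block and 0.00146 with merging at 50 bp, and the Cxcr3 region 6635 bp above the span at 0.00496 with a mean of at least 10.

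Leave-one-out ranges crossed 0 for the Ccl3 regions 7965 bp (-0.073 to 0.0391) and 7269 bp below the span (-0.0238 to 0.021), the Ccl3 sum (-0.0216 to 0.0545), the Ccl5 region 1013 bp below the span (-0.183 to 0.0155), the Ccr2 sum (-0.0574 to 0.0347), the Cx3cr1 region inside the span (-0.0174 to 0.231), and the Cxcr3 regions 6635 bp (-0.0628 to 0.00423) and 25773 bp above the span (-0.095 to 0.0795), and in low_to_high against high_to_high cells for the Ccl5 region 19747 bp above the span (-0.0563 to 0.363). Leaving out 1 library moved the value by over 1.5 times or changed its sign at 19 of 22 member regions for the YFP states, 19 for high_to_high against low_to_low, 18 for low_to_high against low_to_low and 22 for low_to_high against high_to_high cells. The region near Ccr1 was also not called with the covariate (limma adjusted p = 0.961) or with missing values at the lowest of the list (limma adjusted p = 0.334), in a range of 0.00139 to 0.961 over all alternatives. The cause of these changes was not tested.

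Counts past 2-fold moved as well. On the deposited scale they were 3 higher and 3 lower for effector against naive, 0 higher and 8 lower for effector against antigen-experienced, 0 lower for day 9 against effector, 0 higher for day 9 against antigen-experienced and 1 lower for day 9 against naive cells. With a pseudocount of 5 they were 0 lower for effector against antigen-experienced, 0 higher for day 9 against effector and 1 higher for day 9 against antigen-experienced cells. With a fold over local signal of at least 6, which leaves fewer regions, they were 3 higher and 0 lower for effector against naive, 2 higher and 0 lower for effector against antigen-experienced, 0 higher and 0 lower for day 9 against effector and 5 higher for day 9 against naive cells. That filter left peaks at 10 member regions in all of day 9, at 12 in effector and at 19 in antigen-experienced cells. With the limit of 20 kb, 0 were lower for day 9 against effector cells. Depth limits the lists to sites above 2.25 to 4.32 tags per 10 M, and single reference libraries have no replicate check.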
